A study of Mus musculus with 6 samples.

Results

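Pluripotency and germ cell identity factors were followed in mouse germinal vesicle (GV) oocytes, the fully grown oocytes that are arrested in meiotic prophase. The 10 genes Pou5f1, Nanog, Sox2, Klf4, Esrrb, Zfp42, Lin28a, Lin28b, Prdm14 and Tfap2c were taken by symbol from a table of 24421 genes, and all 10 were found. RNA-seq covered 2 genotypes with 3 libraries each, and each library held 15 oocytes of 1 female of about 3 months. Both genotypes were Ring1 -/- with Rnf2 f/f alleles on a mixed FVB, 129/Sv and C57BL/6J background, so the controls lacked Ring1 too. The DKO genotype also carried Zp3-cre, a recombinase driven by a zona pellucida promoter that is active in growing oocytes, and the SKO genotype did not. The comparison therefore addresses the oocyte deletion of Rnf2, a core E3 ligase of Polycomb repressive complex 1 (PRC1), on a Ring1-null background, and effects of the transgene and of the deletion cannot be told apart.

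In embryonic stem cells, Pou5f1 (Oct4), Sox2 and Nanog form the core of the pluripotency network, and Klf4, Esrrb and Zfp42 (Rex1) belong to its naive branch. Lin28a and Lin28b encode RNA-binding proteins that block maturation of let-7 microRNAs, and Prdm14 and Tfap2c act in the specification of primordial germ cells. Oocytes store some of these transcripts for the embryo, while PRC1 is known for holding CpG-rich promoters of developmental regulators silent.

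Promoter sequence was compared first, since CpG content was not used to choose the genes. Of the 10 genes, 8 had a window of 300 bases (250 before and 50 after the RefSeq start, GRCm38.p6), and Prdm14 and Tfap2c had none. The Klf4 window held 40 CpG and the Sox2 window 27, where the median over 32851 promoter windows was 7. Only 3.91% of all windows held as many CpG as Klf4, and 15.5% as many as Sox2. The other members held 4 to 11 CpG in each of their windows, with 8 for Lin28b and 11 for the first Pou5f1 window. The only Lin28b window (45470152 to 45470451, minus strand) lies inside the gene, whose outer 5′ end at 45486314 had no window. Its CpG count therefore describes an internal start only. The only Lin28a window (134018767 to 134019066, minus strand) also lies inside its gene, whose outer 5′ end is at 134019196. So do the second windows of Pou5f1 and Esrrb. The 250 bases before the start are shown 5′ to 3′ for the 3 genes that were higher in DKO and, for contrast, for Pou5f1, with each CpG in capitals. They lie at chr3:34649745-34649994 (plus strand) for Sox2, chr4:55532476-55532725 (minus strand) for Klf4, chr10:45470202-45470451 (minus strand) for Lin28b and chr17:35505782-35506031 (plus strand) for Pou5f1.
Sox2: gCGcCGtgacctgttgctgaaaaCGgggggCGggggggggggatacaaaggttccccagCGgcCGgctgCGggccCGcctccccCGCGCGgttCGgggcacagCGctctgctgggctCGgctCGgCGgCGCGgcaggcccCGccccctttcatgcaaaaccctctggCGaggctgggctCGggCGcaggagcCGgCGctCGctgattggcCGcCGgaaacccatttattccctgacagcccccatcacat
Klf4: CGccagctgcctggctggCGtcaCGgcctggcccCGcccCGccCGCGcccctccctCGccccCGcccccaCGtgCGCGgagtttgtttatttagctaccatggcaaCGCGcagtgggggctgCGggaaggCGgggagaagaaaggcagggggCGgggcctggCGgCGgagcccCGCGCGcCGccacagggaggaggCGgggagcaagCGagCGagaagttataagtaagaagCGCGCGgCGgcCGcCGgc
Lin28b: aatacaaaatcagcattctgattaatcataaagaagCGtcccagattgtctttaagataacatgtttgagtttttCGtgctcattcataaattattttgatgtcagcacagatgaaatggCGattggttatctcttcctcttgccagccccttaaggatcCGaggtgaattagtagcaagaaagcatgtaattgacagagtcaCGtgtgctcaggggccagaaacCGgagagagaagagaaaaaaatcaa
Pou5f1: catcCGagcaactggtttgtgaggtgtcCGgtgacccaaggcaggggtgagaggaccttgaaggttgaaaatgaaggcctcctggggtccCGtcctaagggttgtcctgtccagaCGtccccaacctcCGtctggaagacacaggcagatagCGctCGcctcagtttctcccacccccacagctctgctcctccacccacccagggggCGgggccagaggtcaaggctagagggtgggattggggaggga
These stretches held 27, 32, 6 and 8 CpG in that order. The palindromic E-box CACGTG was found in the windows of Klf4 and Lin28b and in 7.15% of all windows, and the octamer ATGCAAAT, searched on both strands, in that of Zfp42 and in 1.74% of all windows. The TATAAA element, searched on both strands, was in no window of these genes and in 13.6% of all windows. These matches are letters in a window and say nothing of binding.

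Libraries held 15521975 to 26652745 counts. The floor used here, 3 counts in a library, corresponded to 0.113 to 0.193 CPM of the unscaled library totals. Elsewhere CPM is the TMM-scaled count relative to library size. Rnf2 had 589 to 989 counts in the DKO libraries and 3901 to 5041 in the SKO libraries, and whether the deleted exons were counted is not stated in any source used here. Ring1 had 1 to 13 counts in any library. Over all 14845 genes that passed the count filter, 2567 (17.3%) were higher and 1100 (7.41%) lower in DKO, 24.7% in either direction (edgeR quasi-likelihood test, adjusted p under 0.05). Higher genes were 70.0% of the calls with TMM scaling and 83.0% with library totals alone, which moved the median log2 fold change of all genes from 0.04 to 0.20. Oocyte markers were abundant in every library, at a summed 9634 to 12940 CPM in DKO and 17352 to 18190 in SKO, led by Gdf9, Bmp15 and Zp3. Of these 10 markers, 6 were lower in DKO and 0 higher.

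Of the 10 factors, 7 passed the filter. Sox2, Klf4 and Lin28b rose in DKO oocytes, 0 fell, and Pou5f1, Esrrb, Lin28a and Tfap2c were not called (edgeR quasi-likelihood test). The other members were below the filter: Nanog was listed at 0 throughout, and Zfp42 and Prdm14 had a few counts. No tested member fell at an unadjusted p under 0.05 either, and DESeq2 also called 3 higher and 0 lower. Among all genes tested, 24.7% were called, 17.3% higher and 7.41% lower. The 2 groups of libraries did not overlap for 3 of the 7, with DKO above in each, while among all tested genes DKO lay above SKO in 24.7% and below it in 19.7%. Sox2 passed the filter only with the help of the DKO libraries, where it was high, so its entry among the tested genes is not independent of its rise. Of the 6 members that passed on the SKO libraries alone, 2 rose, against 12.0% of 12731 such genes. The median log2 fold change was 0.18 over the 7 tested members and 0.04 over all tested genes.

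**Figure D1:**
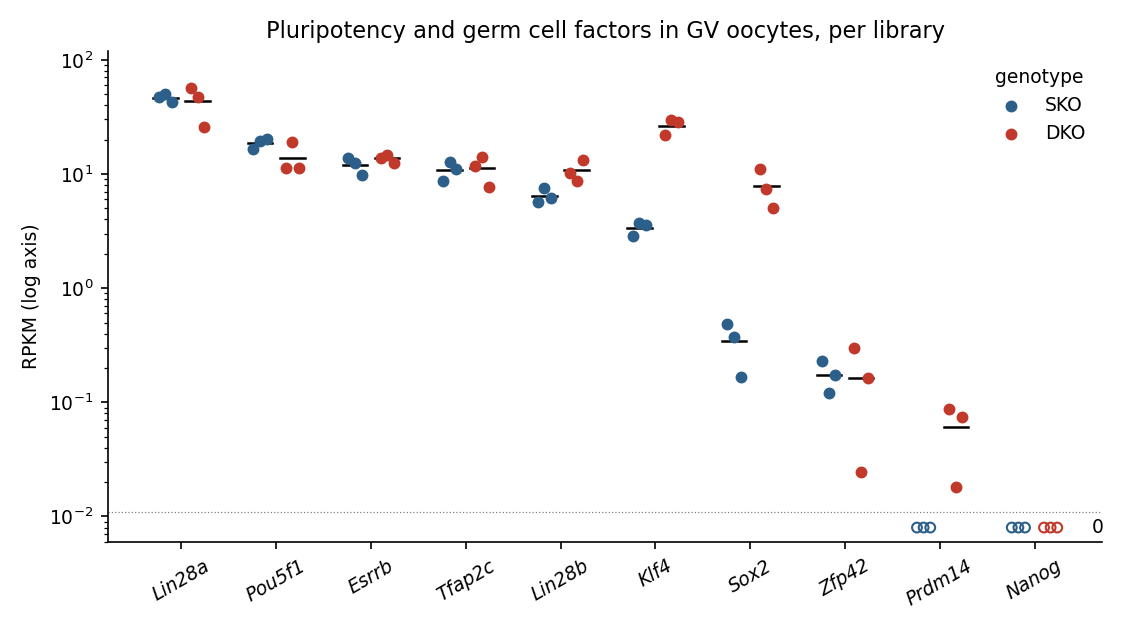
RPKM (log axis) of the 10 factors in each of 3 SKO (blue) and 3 DKO (red) libraries, ordered by the SKO mean, with black lines for group means and open circles on the bottom line for libraries at 0. The DKO points of Klf4, Sox2 and Lin28b lie above all SKO points, Nanog is at 0 in all 6 libraries and Prdm14 in the 3 SKO libraries.

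Levels were compared between genes per length, as RPKM, which is the scaled CPM divided by the deposited gene length in kilobases. In SKO oocytes Lin28a was highest at 46.3 ± 3.63 RPKM (SD, n = 3 mice, as for all means here), above 93.2% of the 20319 genes detected in any library. Pou5f1 followed at 18.8 ± 2.06 RPKM, Esrrb at 12.1 ± 2.04, Tfap2c at 10.8 ± 2.08, Lin28b at 6.45 ± 0.959 and Klf4 at 3.39 ± 0.456 RPKM. Sox2 was at 0.343 ± 0.163 RPKM, Zfp42 at 0.175 ± 0.0558, and Prdm14 and Nanog at 0. Neighbours in this order did not overlap, apart from Esrrb with Tfap2c, Sox2 with Zfp42, and the pair at 0.

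The order was different in DKO oocytes, where Klf4 stood in the second place at 26.5 ± 4.12 RPKM, behind Lin28a at 43.4 ± 16.2 RPKM, with overlapping ranges. Pou5f1, Esrrb, Tfap2c, Lin28b and Sox2 followed between 13.9 and 7.84 RPKM, and each overlapped the next. Klf4 moved from above 60.6% of detected genes in SKO to above 89.0% in DKO, and Sox2 from 37.0% to 70.6%. The members as a whole summed to 98.3 RPKM in SKO and 127 RPKM in DKO, and Zfp42, Prdm14 and Nanog stayed at the foot of the order.

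Klf4, a zinc finger factor of the naive pluripotency network that is also active in epithelia (chromosome 4, 55527137 to 55532475, GRCm38), had 217, 246 and 265 counts in SKO replicates 1 to 3 and 1168, 1913 and 2220 in DKO replicates 1 to 3. Per length these were 2.87, 3.72 and 3.58 RPKM in SKO and 21.8, 29.5 and 28.3 RPKM in DKO. All DKO libraries were high and the groups did not overlap, as held for 44.3% of all tested genes in either direction. Klf4 rose 7.84-fold (95% interval 5.6 to 11), a log2 change of 2.97 with an SE of 0.22 (adjusted p = 1.2e-05 by edgeR). Of all tested genes, 7.19% had a larger log2 fold change.

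Sox2, the partner of Pou5f1 in stem cells and a regulator of neural progenitors (chromosome 3, 34649995 to 34652461), had 30, 20 and 10 counts in SKO replicates 1 to 3 and 481, 386 and 323 counts in DKO replicates 1 to 3. Its level was 0.489, 0.373 and 0.167 RPKM in SKO and 11.1, 7.34 and 5.08 RPKM in DKO. The lowest DKO library stood above the highest SKO library, and DKO replicate 1 was the highest. Sox2 rose 22.7-fold (95% interval 11 to 46.9), a log2 change of 4.50 with an SE of 0.47 (adjusted p = 0.000111 by edgeR), and 3.36% of tested genes had a larger one. The gene lies within Sox2ot, a long noncoding RNA gene, and no source used here says whether reads were counted by strand. Sox2ot had 0.739 CPM in SKO and 2.18 CPM in DKO, a gain of 1.44 CPM beside the 18.5 CPM gained by Sox2, and was not called (adjusted p = 0.0763).

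Lin28b, one of the let-7 blockers (chromosome 10, 45376617 to 45486314), was already expressed in SKO, at 5.69, 7.53 and 6.13 RPKM in replicates 1 to 3, and measured 10.2, 8.64 and 13.3 RPKM in DKO replicates 1 to 3. The groups did not overlap, but SKO replicate 2 and DKO replicate 2 were close. It rose by a log2 fold change of 0.74 (SE 0.21, edgeR adjusted p = 0.0272), or 1.66-fold (95% interval 1.21 to 2.29), and 25.6% of tested genes had a larger value. The call was lost without DKO replicate 3 (adjusted p = 0.0578), SKO replicate 1 (adjusted p = 0.125) or SKO replicate 3 (adjusted p = 0.11).

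Lin28a, its paralog (chromosome 4, 134003330 to 134019196), had 46.8, 49.7 and 42.5 RPKM in SKO and 57.1, 47.4 and 25.5 RPKM in DKO replicates 1 to 3. DKO replicate 3 was low while the other two DKO libraries lay near or above the SKO libraries. The log2 fold change was -0.10 (SE 0.26, edgeR adjusted p = 0.819), with a 95% interval of -0.67 to 0.48, so changes within that range were not excluded. Its sign turned without DKO replicate 3 (0.17) and with library totals in place of TMM (0.091). Whether Lin28a and Lin28b differed in their response was not tested.

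Pou5f1, the central factor of the network and a transcript long known in oocytes (chromosome 17, 35506032 to 35510777), had 16.4, 19.6 and 20.3 RPKM in SKO and 11.4, 18.9 and 11.3 RPKM in DKO replicates 1 to 3. DKO replicates 1 and 3 were below all SKO libraries, and DKO replicate 2 lay among them. The log2 fold change was -0.43 (SE 0.25, 95% interval -0.99 to 0.12, edgeR adjusted p = 0.239). Without DKO replicate 2 it was -0.73 and passed the test (adjusted p = 0.0405). Pou5f1 has retrocopies, and reads of near-identical copies may be split or shared; the copy Pou5f1-rs4 had 10 to 32 counts per library, where Pou5f1 had 367 to 905.

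Esrrb, an orphan nuclear receptor of the naive network (chromosome 12, 86361117 to 86521628), had 13.9, 12.4 and 9.89 RPKM in SKO and 13.9, 14.6 and 12.6 RPKM in DKO, with overlapping groups. Its log2 fold change was 0.18 (SE 0.18, 95% interval -0.23 to 0.59, edgeR adjusted p = 0.513). Tfap2c, the AP-2 factor of germ cell specification (chromosome 2, 172545678 to 172558622), had 8.60, 12.8 and 11 RPKM in SKO and 11.6, 14.2 and 7.70 RPKM in DKO. Its DKO libraries held both the highest and the lowest value. The log2 fold change was 0.05 (SE 0.26, 95% interval -0.53 to 0.63, edgeR adjusted p = 0.911), and its sign turned without DKO replicate 2 (-0.16) or SKO replicate 1 (-0.11).

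**Figure D2:**
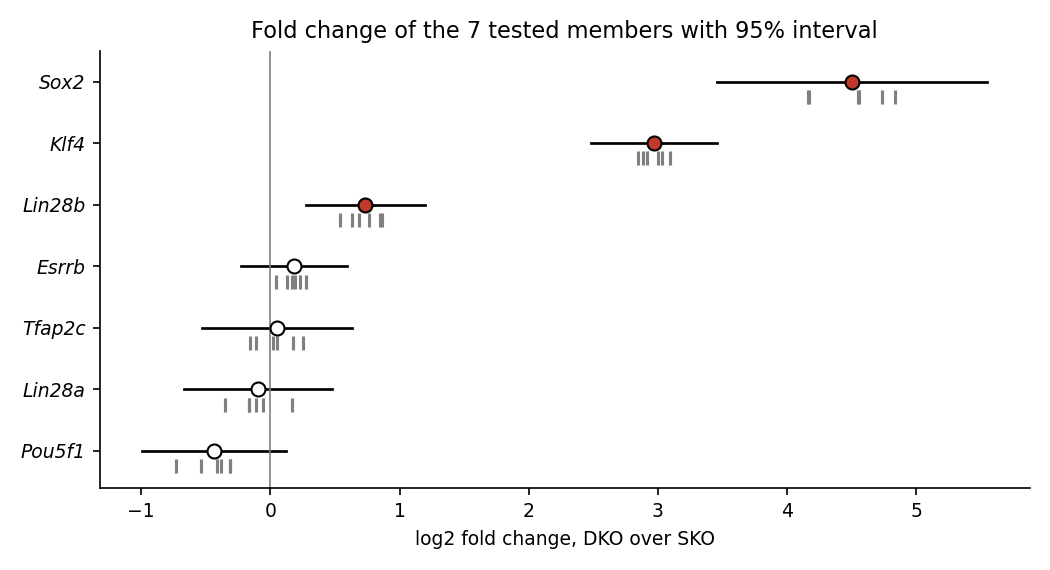
Log2 fold change (DKO over SKO) of the 7 tested factors, with 95% intervals as lines, called genes in red and genes not called in white, and grey ticks for the values with each library left out in turn. Sox2 (4.50) and Klf4 (2.97) lie far to the right of 0, Lin28b (0.74) just right of it, and the intervals of the other genes include 0.

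Among the tested members, Sox2, Klf4 and Lin28b were also those with the lowest levels in SKO, between 0.343 and 6.45 RPKM, and the members that were not called were at 10.8 RPKM or above. For Sox2 this follows in part from the filter, which it passed only through the DKO libraries. The untested members were lower still in SKO: Prdm14 had counts in DKO only, Zfp42 had a ratio of DKO to SKO of 0.868, and Nanog had no counts. DKO libraries did not rank alike for the risen genes: Sox2 was highest in DKO replicate 1, Klf4 in DKO replicate 2 and Lin28b in DKO replicate 3. The spread was wider in DKO than in SKO for Lin28a, with a coefficient of variation of 37.3% against 7.82%, and for Pou5f1, with 31.5% against 11%. It was narrower in DKO for Esrrb, at 7.51% against 16.9%.

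**Figure D3:**
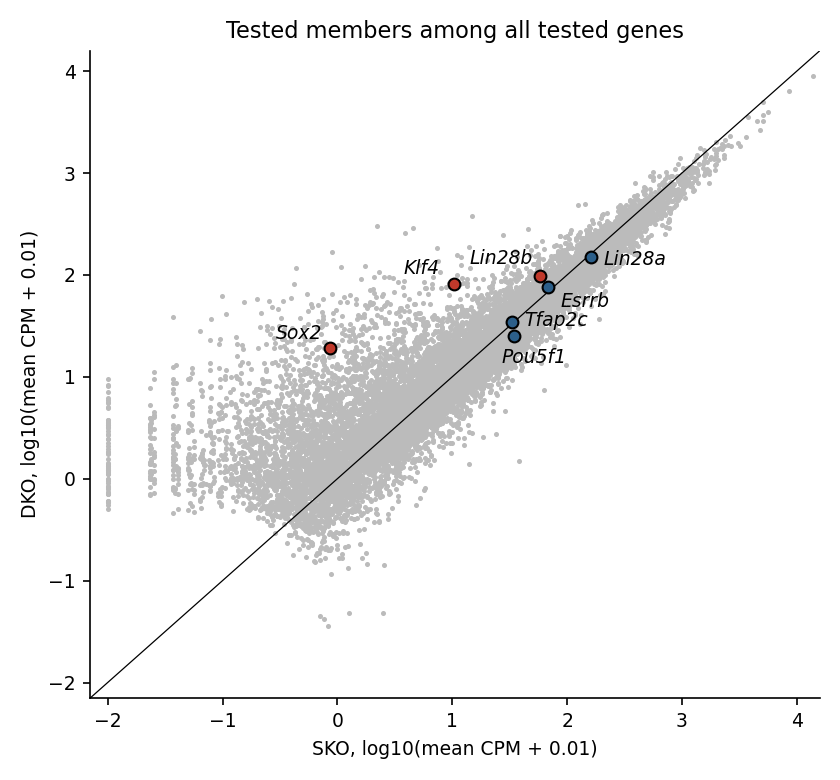
Mean CPM of all 14845 tested genes (grey) in SKO (horizontal) and DKO (vertical), on log10 axes after adding 0.01 CPM, with the line of equality. Sox2, Klf4 and Lin28b (red, called) lie above the line, and Lin28a, Esrrb, Tfap2c and Pou5f1 (blue, not called) lie along it.

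The members below the filter included the remaining core factor. Nanog, the homeobox factor of the inner cell mass (chromosome 6, 122707489 to 122714633), had 0 counts in all 6 libraries, which allows up to 0.0464 CPM over the DKO libraries and 0.0423 CPM over the SKO libraries (3 counts, counting error only). Zfp42 (chromosome 8, 43295067 to 43307009) had 11, 5 and 8 counts in SKO and 10, 1 and 8 in DKO, and the groups overlapped. Its ratio of DKO to SKO was 0.868 (exact 95% interval 0.45 to 1.65). Prdm14, a PR-domain factor of primordial germ cells (chromosome 1, 13113428 to 13127163), had 0 counts in each SKO library and 4, 1 and 5 in the DKO libraries, with no overlap. Over the DKO libraries it was at 0.155 CPM (95% interval 0.0742 to 0.284, counting error only). That point value was 3.66 times the floor of 3 counts over the SKO group, which is not a lower limit of the rise. In a fit with no filter Prdm14 had an unadjusted p of 0.0307 and an edgeR adjusted p = 0.111, so it was not called.

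Markers of other ovarian cells moved with the genotype in part. The 14 granulosa and cumulus markers summed to 274 to 299 CPM in DKO and 113 to 140 CPM in SKO. Of these, 12 were tested, 6 higher and 1 lower, beside 17.3% higher and 7.41% lower of all tested genes. The most abundant were Nr5a2 (117 and 79.1 CPM in DKO and SKO), Ptgs2 (87.0 and 3.79 CPM) and Cyp19a1, which was lower in DKO (17 and 30 CPM). The other rises were Fshr, the receptor of follicle-stimulating hormone, at 30.7 ± 2.54 CPM in DKO and 0.506 ± 0.0397 CPM in SKO, Has2 at 8.77 and 1.86 CPM, Inhba at 5.43 and 1.35 CPM and Wt1 at 5.29 and 0.476 CPM. The remaining 7 markers, Foxl2, Amh and Amhr2 among them, were not called or not tested, at 0.123 to 12.5 CPM in DKO and 0.115 to 6.61 CPM in SKO, and none was at 0. The 12 theca, stroma and endothelium markers summed to 117 to 131 CPM in DKO and 109 to 145 CPM in SKO. Of these, 8 were tested, 5 higher and 1 lower, beside the same shares of all tested genes. The most abundant, Pecam1, was the fall (60.9 and 110 CPM in DKO and SKO), while Cyp11a1 (36.9 and 14.6 CPM) and Kdr (11.6 and 3.68 CPM) rose, so the similar sums combine opposite changes. Col1a1, also higher, had 2, 1 and 2 counts in SKO replicates 1 to 3 and passed the filter only through the DKO libraries. How many other markers did so was not counted. The counts of markers higher in DKO may therefore include more genes that entered the test because they were high there. Of the blood and immune markers, the macrophage gene Cd68 was at 2.47 CPM in DKO and 2.02 CPM in SKO and was not called, and the globin genes Hba-a1 and Hbb-bs were at 0. Their part in the rises of Klf4 and Sox2 was not tested. In pooled oocytes, fewer cells of a type and less RNA per cell cannot be told apart.

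Partners and targets of the core network came from a list of 36 genes, of which 27 were tested. Of these, 11 rose and 1 fell (edgeR quasi-likelihood test), with a median log2 fold change of 0.54, where 17.3% of all tested genes rose and 7.41% fell, with a median of 0.04. Among the 20 that passed the filter on the SKO libraries alone, 5 rose and 1 fell, with a median of 0.19, against 12.0%, 8.63% and -0.06 for all such genes. The Kruppel-like factor genes Klf5 and Klf2, close relatives of Klf4, rose to 3.13 ± 0.151 CPM from 0.194 and to 2.17 ± 0.552 CPM from 0.236. Both passed the filter only through the DKO libraries, where they were high. Zscan10, a zinc finger factor of stem cells, was at 4.90 ± 0.83 CPM in SKO and rose to 17.1 ± 5.84 CPM in DKO (1.80 on the log2 scale, SE 0.33, edgeR adjusted p = 0.00315). Foxd3, a forkhead factor of epiblast and neural crest, had 2 counts over the SKO libraries and 150 over the DKO libraries, a ratio of 82.3 (exact 95% interval 22.4 to 685). Foxd3 too passed the filter only through the DKO libraries. Its log2 fold change went from 6.22 to 8.77 without SKO replicate 1, with 0 SKO counts left, and to 5.58 without DKO replicate 1.

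The most abundant of these partners moved less. Sall4, a zinc finger partner of Pou5f1, fell from 1230 ± 99.0 to 737 ± 225 CPM (log2 fold change -0.74, SE 0.21, edgeR adjusted p = 0.0287), and Dppa3 (Stella), a maternal factor that protects maternal methylation in the zygote, rose from 561 ± 124 to 1024 ± 318 CPM (0.87, SE 0.25, edgeR adjusted p = 0.0301). The call of Sall4 was lost without any 1 library other than DKO replicate 3 (adjusted p 0.059 to 0.0999). That of Dppa3, whose groups overlapped, was lost without DKO replicate 1 or 3 or SKO replicate 1 or 2 (adjusted p 0.0591 to 0.119). Fgf4 and Lefty1 were at 0 counts in all 6 libraries.

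Of 16 genes of the primed state and of the exit from pluripotency, 5 passed the filter on the SKO libraries alone. Of these, 2 rose and 0 fell (edgeR quasi-likelihood test), with a median log2 fold change of 0.66, against 12.0% and 8.63% of all such genes. With those that passed only through the DKO libraries, where they were high, 14 were tested, 11 rose and 0 fell, with a median of 3.62, against 17.3% and 7.41% of all tested genes. Passing in that way required a difference, so the larger count describes these genes and lends no support to the list. At an unadjusted p under 0.05, 12 of the same 14 were higher and 0 lower. DESeq2 called 12 of them higher and 0 lower, where it called 2883 of all 14845 tested genes higher and 1594 lower. Both counts carry the same limit of the filter. Eomes, a T-box factor of the early mesendoderm, reached 30.1 ± 7.48 CPM from 0.257, and Pou3f1 (Oct6), a POU factor of the primed epiblast, reached 9.64 ± 4.03 CPM from 0.124. Gata4, an endoderm and gonad factor, rose from 52.4 ± 4.78 to 129 ± 2.68 CPM, and Sox4 to 3.86 ± 0.0631 CPM from 0.269. Otx2 was at 0 counts in all 6 libraries.

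Of 15 factors of primordial germ cells, 13 were tested, 3 rose and 2 fell, with a median of 0.07. These are 23.1% and 15.4%, where 17.3% and 7.41% of all tested genes rose and fell, and the same calls stood among the 12 that passed on the SKO libraries alone. Tfap2a, a paralog of Tfap2c, was at 6.61 ± 0.0796 CPM in SKO and rose to 80.6 ± 25.8 CPM in DKO (3.61 on the log2 scale, SE 0.26, edgeR adjusted p = 1.1e-05), while Tfap2c itself was not called. Hmgb3, a chromatin protein gene, rose from 5.23 ± 0.985 to 21.5 ± 9.84 CPM. Dppa3 was the remaining rise. The receptor gene Kit fell from 707 ± 17.5 to 399 ± 47.6 CPM (-0.83, SE 0.15, edgeR adjusted p = 0.00349), and Sall4 was the other fall. Dppa3 and Sall4 are also counted among the core partners, and the calls of both were lost without some single libraries, as given there. Dazl, a germ cell RNA-binding protein gene, was at 408 ± 205 CPM in DKO and 370 ± 18.9 CPM in SKO, and Tcl1 at 288 ± 97.2 and 379 ± 31.2 CPM, and neither was called. Without DKO replicate 2, which also decided the call of Pou5f1, Tcl1 was called lower at a log2 fold change of -0.71 (edgeR adjusted p = 0.0163).

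The let-7 axis on which Lin28a and Lin28b act was mostly not called. All 19 genes were tested, of which 2 rose and 2 fell, with a median of -0.21. That is 10.5% in each direction, beside 17.3% and 7.41% of all tested genes. Igf2bp1, a let-7 target that encodes an mRNA-binding protein, was at 1.08 ± 0.391 CPM in SKO and rose to 26.6 ± 12.1 CPM in DKO (4.61 on the log2 scale, SE 0.43, edgeR adjusted p = 5.49e-05), and the transcription factor gene Arid3a rose from 9.81 ± 1.09 to 29.5 ± 2.5 CPM. Igf2bp2 fell from 970 ± 49.8 to 607 ± 101 CPM (-0.68, SE 0.17, edgeR adjusted p = 0.0144), and the microRNA exporter gene Xpo5 from 104 ± 10.4 to 66.9 ± 14.3 CPM (-0.63, SE 0.20, edgeR adjusted p = 0.0397). The call of Igf2bp2 was lost without SKO replicate 2 or 3 (adjusted p 0.0518 and 0.0658). That of Xpo5 was lost with library totals (adjusted p = 0.144) and without any 1 library other than DKO replicate 2 (adjusted p 0.0668 to 0.134). Dicer1, which matures let-7, was at 1508 ± 104 CPM in DKO and 1343 ± 58.4 CPM in SKO and was not called.

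Paralogs of the members included 8 rises and 1 fall among 21 tested of 24, with a median of 0.67, where 17.3% of all tested genes rose and 7.41% fell. On the SKO libraries alone 14 passed the filter, with 2 rises, 1 fall and a median of 0.05, while 12.0% of all such genes rose and 8.63% fell. Tfap2a, Pou3f1, Klf5 and Pou3f2 had the smallest adjusted p. Of these, Pou3f1, Klf5 and Pou3f2 passed the filter only through the DKO libraries, where they were high. Pou3f2 (Brn2), a neural POU factor, had 3 counts over the SKO libraries and 207 over the DKO libraries, a ratio of 75.7 (exact 95% interval 25.5 to 370). Its log2 fold change went from 6.13 to 6.93 without SKO replicate 3. The fall was Klf17, a germline Kruppel-like factor gene named after its value was seen, from 360 to 191 CPM (edgeR adjusted p = 0.00378). The list shares Pou3f1 with the primed genes, Klf2 and Klf5 with the core partners and Tfap2a, Prdm1 and Sox15 with the germ cell factors.

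**Figure D4:**
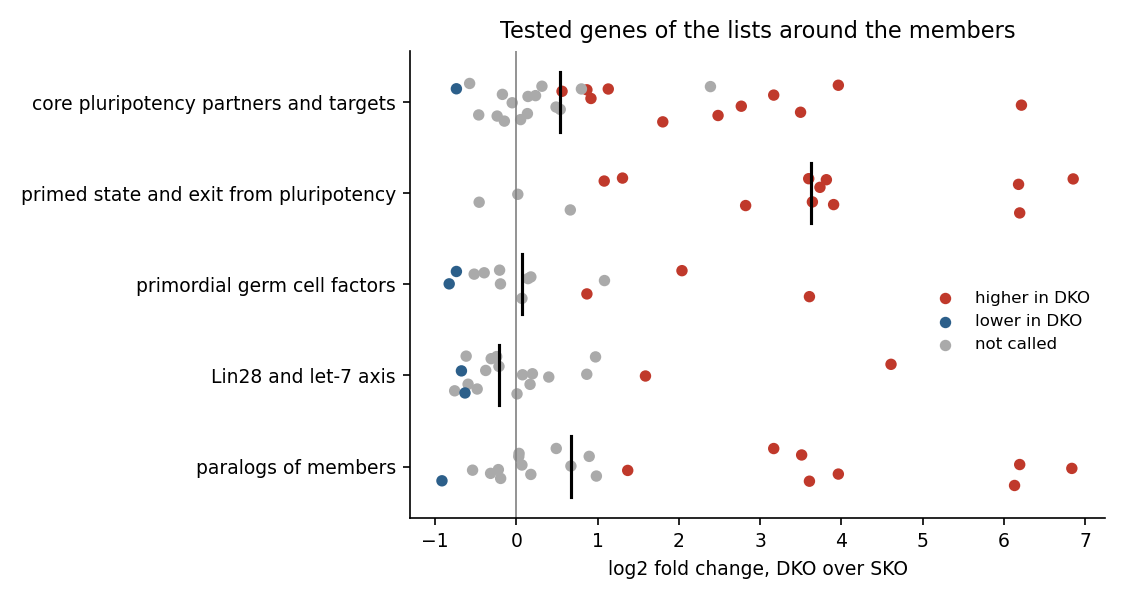
Log2 fold change (DKO over SKO) of each tested gene of the 5 lists, 1 point per gene, with rises in red, falls in blue, genes not called in grey and a black bar at the list's median. The medians are 0.54, 3.62, 0.07, -0.21 and 0.67 from top to bottom, and the primed list has no blue point.

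Genes with the most similar pattern were sought for the 3 tested members with the highest mean RPKM, among 8156 other tested genes of at least 10 CPM, by Pearson r of log2 CPM over the 6 libraries. These points fall into 2 genotypes, so r mostly follows the difference between them where there is one. Lin28a was most like Luc7l (r = 0.991) and Jam3 (r = 0.990), neither of which was called. Pou5f1 was most like the germ cell factor gene Tcl1 (r = 0.995) and the proteasome gene Psmd8 (r = 0.995), which were not called either. Klf4 was most like Kirrel (r = 0.999), which rose from 0.512 to 23.0 CPM, and Mid1 (r = 0.999), which rose from 36.9 to 151 CPM.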

How the data were processed

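Raw counts for Entrez genes and a gene length column (bases) form the table that the authors deposited, and the values are whole numbers with unequal library totals. The submitters' processing notes name STAR 2.5.0a, GRCm38 and mm10. Which counter and annotation were used, and how strand and multiply aligned reads were treated, is not given in the sources. Since RNA was amplified before sequencing, per the labels' protocols, reads do not each stand for a molecule, and intervals and floors from counts cover counting error only. Each library came from its own mouse.

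Of 24421 identifiers, 24387 matched RefSeq GRCm38 symbols. The test was edgeR 4.0.16 (R 4.3.3) after filterByExpr (minimum count 10, minimum total 15), and TMM scaling, as the two-sided quasi-likelihood test over 14845 genes with Benjamini-Hochberg adjustment, called at an adjusted p under 0.05. Fold changes are DKO over SKO; standard errors come from the F statistic. The code was tested on simulated data. Members and lists were chosen with earlier results of these data known. Of 155 list entries, 1 (Hbb-bt) was not found. Named from each list were up to 4 called genes with the smallest adjusted p and genes over 100 mean RPKM; from marker lists, the 3 most abundant. Genes at 0, defining granulosa markers, and overlapping, copied or neighbouring genes were named after their values were seen. Alternatives were DESeq2 1.42.0, library totals, other filters, a robust fit, a replicate block and leaving out each library. Replicate numbers were checked as pairs and not used as such. Protein sequences were not analysed here, and a few marker and neighbour values are not reported here.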

Additional observations from a re-analysis of the deposited data

How the results depend on the processing

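The fold changes of the 7 tested members, Rnf2 and the 21 genes named by rule from the lists, and the numbers of calls among all genes, members and the 5 lists, were recomputed under 12 alternatives; Klf17, Sox2ot, markers, similar genes and neighbours were not. Sox2, Klf4 and Rnf2 kept their direction and call in all of them, with log2 fold changes of 4.16 to 4.84 for Sox2, 2.85 to 3.13 for Klf4 and -2.83 to -2.14 for Rnf2. Esrrb stayed not called, at 0.05 to 0.34. With each library left out in turn, the log2 fold change ranged from 0.54 to 0.87 for Lin28b, from -0.73 to -0.31 for Pou5f1, from -0.35 to 0.17 for Lin28a, from -0.16 to 0.25 for Tfap2c and from -0.35 to 0.37 for Dazl, which was -0.35 without DKO replicate 1. With library totals that of Lin28a was 0.0911. The number of all genes lower in DKO was 596 with library totals and 434 to 1501 with a library left out, and the number of members lower was 0 to 1. Without a library, 0 to 1 core partners, 1 to 2 germ cell factors and 0 to 3 genes of the let-7 axis fell, and with library totals 1 gene of that axis did. The cause of these shifts was not tested. Counting only genes that pass the filter on the SKO libraries alone, chosen after seeing the data, left 1524 rises among all genes, 5 among core partners, 2 among primed genes and 2 among paralogs, because fewer genes are counted. For Rnf2 and the 21 list genes, 17 of 264 recomputed values lost the call, in 4 genes (Sall4, Dppa3, Igf2bp2 and Xpo5).

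Replicate numbers were shared between the genotypes, but the labels do not say that they pair mice. Deviations from the group means correlated at 0.139, 0.0773 and 0.0479 between libraries of the same number, and each library correlated best with its own number, a hint from the data only. With the replicate block 2651 genes were higher and 1364 lower, the calls of the 7 members did not change, and Lin28b had a log2 fold change of 0.72 (edgeR adjusted p = 0.0282). Depth limits Nanog, Zfp42 and Prdm14, which had 0 to 24 counts per genotype.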

Other observations

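The nearest tested gene on each side of the 10 factors was looked up after the data were seen, in RefSeq coordinates of GRCm38. Of these 20 neighbours, 5 were higher and 0 lower in DKO (edgeR quasi-likelihood test), where 17.3% of all tested genes were higher. Dppa3, 77.2 kb from Nanog, was among them. Bves, a Popeye domain gene 4.13 kb from Lin28b, was at 1.19 CPM in DKO and 0.0137 CPM in SKO, and Hace1 on the other side was not called. Bmp7, a growth factor gene 309 kb from Tfap2c, was at 34.2 CPM in DKO and 5.87 CPM in SKO, and Vash1, 157 kb from Esrrb, at 6.32 and 1.08 CPM, while Tfap2c and Esrrb themselves were not called. Gm12505, 108 kb from Klf4, was not called, nor was Dnajc19 at 569 kb from Sox2. Gm3143, 47.2 kb on the other side of Sox2, was at 793 CPM in DKO and 390 CPM in SKO.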
